A study of Mus musculus with 31 samples.

Results

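The 10 genes described here belong to autophagy and the lysosome: Sqstm1, Map1lc3a, Map1lc3b, Gabarapl1, Bnip3, Ulk1, Becn1, Lamp2, Ctsl and Tfeb. They were chosen by name, and their rows were taken from count tables of 39017 Ensembl identifiers. All 10 were present and all 10 passed the filter on low counts. The tables came from RNA sequencing of gastrocnemius, a calf muscle of the hindlimb, in mice that lacked MuRF1 or were wild type. MuRF1 is a muscle ubiquitin ligase encoded by Trim63, and it marks proteins for breakdown by the proteasome.

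The study crossed genotype with sex and diet in 8 groups. Females without MuRF1 (MuRF1 -/-) gave 3 libraries on the high-fat diet and 4 on chow, and wild-type females gave 4 on each diet. Males without MuRF1 likewise gave 3 libraries on the high-fat diet and 4 on chow, against 4 on each diet in wild-type males. All mice ate chow after weaning. The high-fat groups changed at 8 weeks of age to a diet with 45% fat from lard, and muscle was taken from every group at 30 weeks. The sources used here name neither the strain nor the design of the knockout allele, and say nothing of littermates. The group of each library is that of the animal number in its description, and 1 library whose animal number is in no title was left out. That left 30 libraries with 9342028 to 14919379 counts each, and the lowest count of any of the 10 genes in any library was 395.

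Autophagy encloses cytoplasm, damaged organelles or protein aggregates in a double membrane that then fuses with a lysosome. ULK1 and beclin 1 start the process, lipid-bound LC3 and GABARAP proteins build the membrane and hold cargo through receptors such as p62 and BNIP3, and lysosomal proteins complete the breakdown. The transcription factor TFEB, when it enters the nucleus, raises genes of both arms by binding an E-box. In skeletal muscle, fasting and denervation are known to raise several of these mRNAs together with those of MuRF1 and other ubiquitin ligases. Read counts measure mRNA and give no measure of autophagic flux, and in bulk muscle fewer cells of a type and less RNA per cell cannot be told apart.

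Because TFEB acts through the E-box CACGTG, the proximal promoters were searched for that motif in sequences from RefSeq (GRCm38.p6, 250 bases before to 50 after a start). For 8 of the 10 genes the table held a promoter, 10 promoters in all. That of Bnip3 at chr7:138909457-138909756 (minus strand) and that of Ctsl at chr13:64370471-64370770 (minus strand) each held 1 match. The match lay 108 bases before the start in Bnip3 and 236 bases before it in Ctsl, and it is in capitals. The Ctsl window lies wholly inside the gene as annotated in GENCODE M21 (chr13:64359337-64370890). The RefSeq start used for Ctsl is thus internal to that gene, and its match lies within the gene.

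Bnip3: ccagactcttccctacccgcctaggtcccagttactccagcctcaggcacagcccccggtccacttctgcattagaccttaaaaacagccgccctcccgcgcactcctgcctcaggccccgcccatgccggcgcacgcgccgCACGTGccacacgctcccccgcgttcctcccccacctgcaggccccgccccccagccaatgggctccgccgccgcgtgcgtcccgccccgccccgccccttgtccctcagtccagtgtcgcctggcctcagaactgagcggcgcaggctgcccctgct
Ctsl: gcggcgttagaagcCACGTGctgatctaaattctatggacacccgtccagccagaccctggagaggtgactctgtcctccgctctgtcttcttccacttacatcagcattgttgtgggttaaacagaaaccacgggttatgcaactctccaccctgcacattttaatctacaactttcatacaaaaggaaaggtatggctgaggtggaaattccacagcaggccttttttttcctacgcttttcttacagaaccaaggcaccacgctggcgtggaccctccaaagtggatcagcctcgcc

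No match was found in Sqstm1, Map1lc3b, Gabarapl1, Ulk1, Lamp2 or the 3 promoters of Tfeb. The motif reads the same on both strands and occurred in 7.15% of 32851 RefSeq promoters of this length. The FoxO motif GTAAACA (3.65% of promoters) and the Nrf2 core TGACTCAGC (0.454%), each searched on both strands, had no match in any of the 10 promoters. Neither E-box match overlapped another of these motifs. A match is a description of letters, not of a site in use. The promoters of Sqstm1 at chr11:50210771-50211070 (minus strand) and Lamp2 at chrX:38456411-38456710 (minus strand) are shown because their genes moved in opposite directions under the diet in females.

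Sqstm1: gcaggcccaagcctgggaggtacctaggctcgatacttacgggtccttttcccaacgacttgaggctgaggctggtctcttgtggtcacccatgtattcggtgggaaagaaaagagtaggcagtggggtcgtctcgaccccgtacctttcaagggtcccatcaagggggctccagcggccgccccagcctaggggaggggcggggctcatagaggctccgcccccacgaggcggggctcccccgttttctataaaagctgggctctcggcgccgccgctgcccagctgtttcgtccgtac
Lamp2: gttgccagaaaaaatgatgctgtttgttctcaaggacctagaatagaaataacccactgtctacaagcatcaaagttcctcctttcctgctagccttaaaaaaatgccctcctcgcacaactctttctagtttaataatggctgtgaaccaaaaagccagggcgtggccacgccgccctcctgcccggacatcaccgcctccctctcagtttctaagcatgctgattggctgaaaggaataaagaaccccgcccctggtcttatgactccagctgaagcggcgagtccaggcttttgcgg

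The libraries bore out their genotype labels. Trim63 had 0.49 to 7.75 CPM (counts scaled to a common library size by TMM) in the 14 knockout libraries, against 107 to 271 CPM in the 16 wild-type libraries. A summed set of 9 muscle fibre genes held 112600 to 211800 CPM across the libraries, so the genes that define the labelled tissue were abundant in each. The title and the description named different animals in 19 of 31 records, and 4 grouped libraries would belong to another group by their own title. By own title, knockout chow female 4 (Trim63 0.81 CPM) and knockout high-fat male 3 (1.83 CPM) would be wild type. Wild-type chow female 4 (212 CPM) and wild-type high-fat female 4 (123.5 CPM) would be knockouts. The grouping by own title thus goes against the Trim63 levels of these 4 libraries. Libraries also differed in how counts depended on the G and C content of a gene. The slope of a library's deviations on GC content, in log2 units per 10 percentage points, was 0.06 to 0.57 in females on high fat, against -0.17 to -0.03 in females on chow. In males it was -0.15 to 0.11 on high fat, against -0.15 to 0.14 on chow. The diet groups were thus apart in females and overlapped in males of both genotypes together. Within knockout males the diets were apart too, at -0.145 to -0.051 on high fat, against -0.041 to 0.056 on chow. Wild-type males had -0.080 to 0.106 on high fat, against -0.153 to 0.138 on chow. Because the slope moves with the diet in females and in knockout males, fits that remove it are given beside the diet results of the 10 genes. For the wider list of pathway genes only the counts of such fits are given.

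Per length, Sqstm1, the gene of the cargo receptor p62, was the most abundant of the 10, at 244.3 ± 45.5 CPM per kilobase of its principal transcript (SD, n = 30 libraries). Bnip3, a receptor for mitochondria on their outer membrane, stood at 126 ± 21.0 CPM per kilobase and Map1lc3a at 116 ± 27.6. Bnip3 was above Map1lc3a in 20 of 30 libraries, so this pair was within the spread of the libraries. Map1lc3b followed at 65.3 ± 8.15 CPM per kilobase and Ctsl, a lysosomal cysteine protease, at 46.2 ± 7.36. Tfeb (36.4 ± 9.10), Gabarapl1 (29.2 ± 3.83) and Lamp2 (22.3 ± 4.29) came next on the same scale, each above its lower neighbour in 23 to 25 libraries, so that neighbours overlapped. Ulk1 had 19.1 ± 2.10 CPM per kilobase and Becn1 was lowest at 10.4 ± 1.10. Sqstm1 stood above the second gene in all 30 libraries, and Ulk1 above Becn1 in all 30. With total exon length in place of the principal transcript, Sqstm1 stayed first and Becn1 last, while the 8 genes between changed places.

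**Figure D1:**
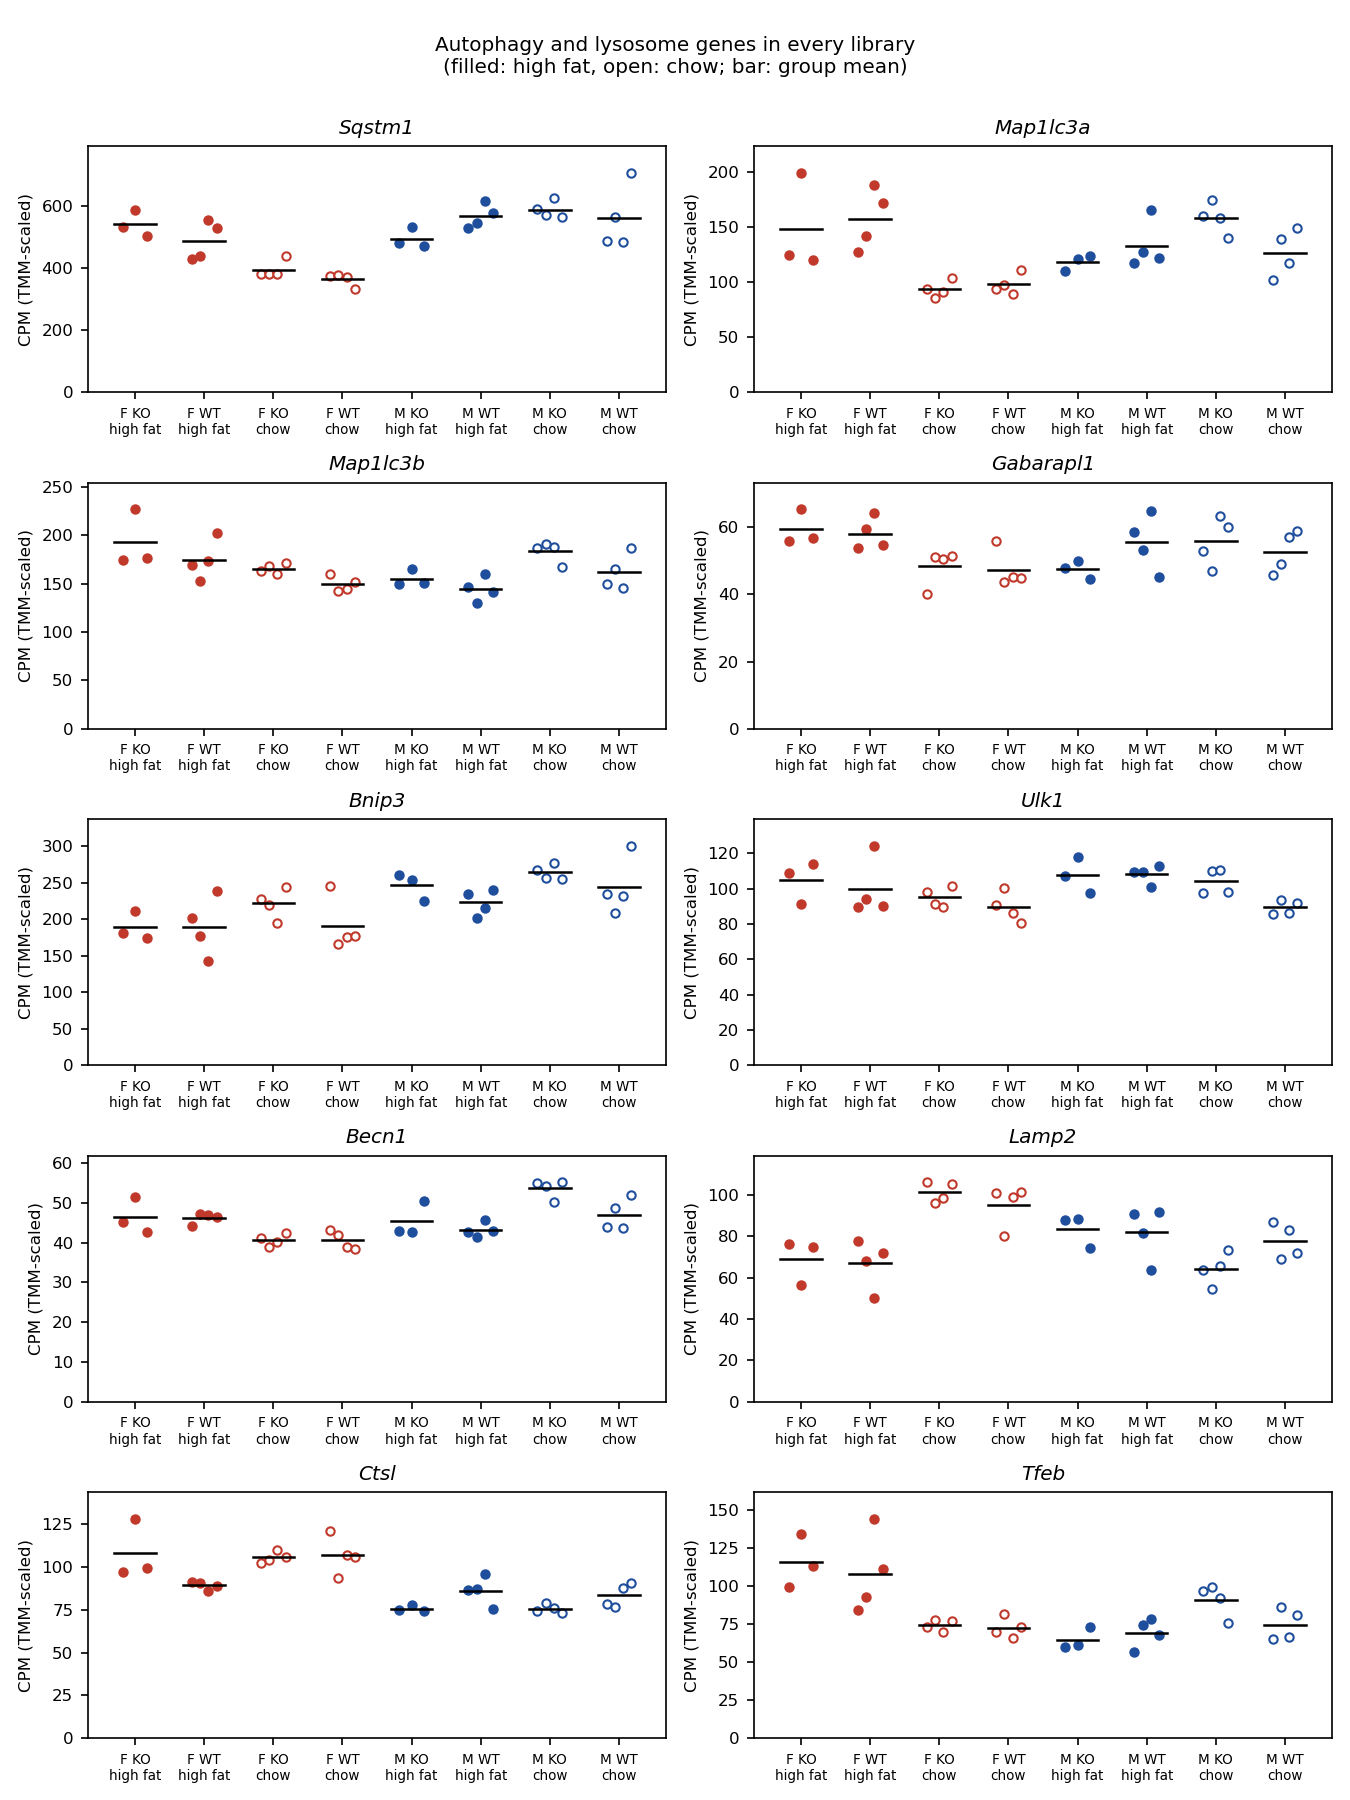
TMM-scaled CPM of the 10 genes in each of the 30 libraries, with a panel per gene and a column per group of sex, genotype (KO for MuRF1 -/-, WT for wild type) and diet; points are libraries (filled on high fat, open on chow) and bars are group means. Map1lc3a and Tfeb in females on high fat (lowest library 120.0 and 84.6 CPM) lie above all females on chow (highest 111 and 81.9 CPM), and Lamp2 lies below them.

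The main question here was whether the diet shifted these mRNAs, and whether it did so alike in both sexes. In the fit that keeps the GC slope, 7 of the 10 genes changed on high fat in females, and in males none passed the test. Map1lc3a, Tfeb, Sqstm1, Gabarapl1, Map1lc3b and Becn1 were higher in females on high fat and Lamp2 was lower. Changes were tested with edgeR's quasi-likelihood test on all 14024 genes that passed the filter, with Benjamini-Hochberg adjustment at 0.05. Among all tested genes 42.5% changed with diet in females (21.4% higher and 21.1% lower), so a changed gene was common, and the count of 7 is read against that share. The median log2 change of the 10 genes was 0.205, against -0.004 for all tested genes.

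Map1lc3a encodes an LC3 protein that is coupled to lipid on the growing autophagosome. Its level was 124, 199.7 and 120.0 CPM in knockout females on high fat and 128, 142, 189 and 172 CPM in wild-type females on high fat. On chow it was 93.6, 86.1, 90.8 and 104 CPM in knockout females and 93.7, 97.9, 89.7 and 111 CPM in wild-type females. Every female on high fat was above every female on chow, and the spread was wider on high fat. The log2 change on high fat was 0.67 ± 0.10 (SE; adjusted p = 2.6e-05, edgeR's quasi-likelihood test).

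Tfeb encodes the transcription factor that controls lysosomal genes. It stood at 99.3, 134 and 114 CPM in knockout females on high fat and at 84.6, 93.1, 144 and 111 CPM in wild-type females on high fat. Females on chow had 73.1, 77.6, 70.1 and 77.3 CPM without MuRF1 and 69.7, 81.9, 66.0 and 73.4 CPM in the wild type. These diet groups did not overlap either, and the log2 change was 0.60 ± 0.10 (adjusted p = 4.1e-05). Wild-type high-fat library 3, the highest for Tfeb and Map1lc3a in its group, also had the steepest GC slope of the 30 libraries, 0.57.

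Sqstm1 levels were 530.5, 586 and 503 CPM in knockout females on high fat and 427, 437, 555 and 527 CPM in wild-type females on high fat. Against these, the chow females had 379.6, 381, 380.0 and 437 CPM without MuRF1 and 372, 376, 371 and 332 CPM in the wild type. Only 1 chow library, a knockout at 437 CPM, reached into the range of the high-fat libraries. Sqstm1 rose by 0.44 ± 0.08 on the log2 scale (adjusted p = 8.4e-05).

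Lamp2, a glycoprotein of the lysosomal membrane whose loss in humans leaves muscle full of autophagic vacuoles, moved the other way. It was at 76.4, 56.3 and 74.8 CPM in knockout females on high fat and 77.9, 68.1, 50.1 and 71.7 CPM in wild-type females on high fat. Chow females had 106, 96.0, 98.4 and 105 CPM without MuRF1 and 101, 80.2, 98.9 and 101 CPM in the wild type. All 7 high-fat libraries were below all 8 chow libraries, the closest pair being 77.9 and 80.2 CPM, and the log2 change was -0.53 ± 0.09 (adjusted p = 9.3e-05).

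Across all tested genes 10.0% had no overlap between the diets in females, and so had 3 of the 10, Map1lc3a and Tfeb upward and Lamp2 downward. The other changes in females were smaller. Gabarapl1, a GABARAP-type protein of the same family as LC3, had a lowest, median and highest level of 53.9, 56.8 and 65.4 CPM in the 7 females on high fat, against 40.2, 47.8 and 55.9 CPM in the 8 on chow (log2 change 0.29 ± 0.08, adjusted p = 0.0061). Map1lc3b, the LC3 protein most used as an autophagosome marker, ranged over 153, 175 and 227 CPM on high fat, against 142, 160.1 and 171 CPM on chow (0.22 ± 0.07, adjusted p = 0.014). Becn1, the gene of beclin 1 in the lipid kinase complex, ranged over 42.6, 46.5 and 51.5 CPM on high fat, against 38.5, 40.6 and 43.2 CPM on chow (0.19 ± 0.06, adjusted p = 0.011). The ranges of all 3 overlapped at their edges.

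Bnip3, Ulk1 and Ctsl did not pass the test in females. Bnip3 had lowest, median and highest levels of 143, 181 and 238 CPM on high fat, against 166, 207 and 245 CPM on chow, a log2 difference of -0.12. Ulk1, the kinase that starts autophagy, had 89.6, 94.2 and 124 CPM on high fat, against 80.5, 91.1 and 102 CPM on chow, a difference of 0.15 (adjusted p = 0.1). Ctsl had 86.0, 91.2 and 128 CPM on high fat, against 93.3, 105.6 and 121 CPM on chow, a difference of -0.11. Without 3 chow females high in the keratin gene Krt10, a marker of skin, Map1lc3b (0.20), Gabarapl1 (0.24) and Becn1 (0.18) no longer passed in females (adjusted p = 0.063 to 0.089). Without knockout high-fat female 2, the highest female library for both, Map1lc3b (0.15) and Becn1 (0.14) did not pass either, and Ctsl did (-0.19).

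The diet was also tested within each genotype of the females. In knockout females 4 of the 10 genes changed, against 19.2% of all tested genes: Map1lc3a (0.66 ± 0.15), Tfeb (0.63 ± 0.14) and Sqstm1 (0.45 ± 0.11) rose and Lamp2 fell (-0.55 ± 0.14). In wild-type females 5 changed, against 25.4% of all tested genes, with Map1lc3a at 0.68 ± 0.14, Tfeb at 0.57 ± 0.13, Sqstm1 at 0.42 ± 0.11, Lamp2 at -0.51 ± 0.13 and Ctsl at -0.26 ± 0.09 (adjusted p = 0.035). Ctsl differed by 0.04 in knockout females (adjusted p = 0.82). The call of Ctsl in wild-type females was lost in 10 of the 30 fits that left out 1 library and in 9 other settings, among them GC correction (-0.04, adjusted p = 0.82). No gene of the 10 passed edgeR's test of the genotype-by-diet difference, which called 0.107% of all tested genes. None had an unadjusted p under 0.05 there, against 1178 of the 14024 tested genes, and DESeq2 called none. The counts within genotypes depend on single libraries, on how libraries are grouped and on GC content. Without knockout high-fat female 2, or without the 3 chow females high in Krt10, 0 genes passed in knockout females. The latter include knockout chow females 1 and 3, of 4 in that group. Without the 3, Map1lc3a was at 0.64, Tfeb at 0.58, Sqstm1 at 0.40 and Lamp2 at -0.54 (adjusted p = 0.088 to 0.12, edgeR). Without knockout high-fat female 2 the same genes were at 0.39, 0.51, 0.39 and -0.42. With libraries grouped by their own title 0 passed in wild-type females. That grouping puts knockout chow female 4 (Trim63 0.81 CPM) among wild-type females on high fat. It also puts knockout high-fat male 3 (Trim63 1.83 CPM) among wild-type females on chow. With GC content removed, Becn1 alone passed in wild-type females (0.38, adjusted p = 0.012). In that fit Sqstm1 (0.25, adjusted p = 0.088), Map1lc3a (0.21, adjusted p = 0.26), Lamp2 (-0.17, adjusted p = 0.17) and Tfeb (0.09, adjusted p = 0.58) did not pass, and 1519 of all tested genes passed, against 3558 without the correction.

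In males the levels on the 2 diets overlapped for every gene of the 10, and 0.67% of all tested genes had no overlap. Sqstm1 had a lowest, median and highest level of 469, 531 and 617 CPM in 7 males on high fat, against 483, 567 and 706 CPM in 8 males on chow. Map1lc3a had 111, 122 and 165 CPM on high fat, against 102, 145 and 174 CPM on chow. Tfeb had 56.9, 67.7 and 78.8 CPM on high fat, against 65.0, 83.7 and 99.4 CPM on chow. In each of these the median over both genotypes was lower on high fat, the opposite of the order in females. Within knockout males the medians on high fat and chow were 480 and 580 CPM for Sqstm1, 121 and 159 for Map1lc3a and 61.3 and 94.55 for Tfeb. Within wild-type males they were closer, at 561 and 525, 124.5 and 128.5, and 71.2 and 73.95 CPM, with Sqstm1 higher on high fat. The median log2 change of the 10 genes was 0.032 in wild-type males and -0.24 in knockout males.

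None of the 10 genes passed the test in males, where 7.97% of all tested genes did. At an unadjusted p under 0.05 there were 5, against 3703 of the 14024 tested genes, and DESeq2 called 3. Becn1 came closest with a log2 change of -0.18 ± 0.06 (adjusted p = 0.051, edgeR), then Tfeb with -0.30 ± 0.10 (0.059) and Map1lc3b with -0.20 ± 0.07 (0.074). Lamp2 was 0.23 ± 0.09 higher on high fat without passing (adjusted p = 0.12). These values lie close to the threshold: with 1 of the 30 libraries left out, Becn1 passed in 14 fits, Tfeb in 9 and Map1lc3b in 4. With GC content removed, Becn1 (-0.24, adjusted p = 0.028) and Tfeb (-0.24, adjusted p = 0.025) passed in males. Both also passed with exon length removed as well (-0.28 and -0.27). In wild-type males no gene of the 10 changed, against 0.349% of all tested genes, and DESeq2 called none. There 1 gene had an unadjusted p under 0.05, against 1491 of the 14024 tested genes. In knockout males 1 gene of the 10 changed, against 5.83% of all tested genes. That gene was Tfeb, at 60.2, 61.3 and 73.2 CPM on high fat, against 96.7, 99.4, 92.4 and 75.8 CPM on chow, with no overlap and a log2 change of -0.49 ± 0.15 (adjusted p = 0.046). It no longer passed in 5 other settings, GC correction among them, nor without any 1 of knockout chow males 1, 2 and 3, knockout high-fat males 1 and 2, or wild-type high-fat male 2. The diets had no overlap in knockout males for 5 of the 10 genes, Sqstm1, Map1lc3a, Map1lc3b and Tfeb downward and Lamp2 upward, as in 28.1% of all tested genes. A fit of the knockout male groups alone called 6 of the 10, with Sqstm1 (-0.27), Map1lc3a (-0.44), Map1lc3b (-0.26), Becn1 (-0.26) and Tfeb lower and Lamp2 (0.35) higher on high fat. It called 2295 genes in all, against 818 in the fit of all groups. The GC slopes of the diets were also apart in knockout males. With GC content removed in the fit of all groups, Becn1 passed there (-0.35, adjusted p = 0.038) and Tfeb did not (-0.32, adjusted p = 0.054). That fit called 817 of all tested genes.

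**Figure D2:**
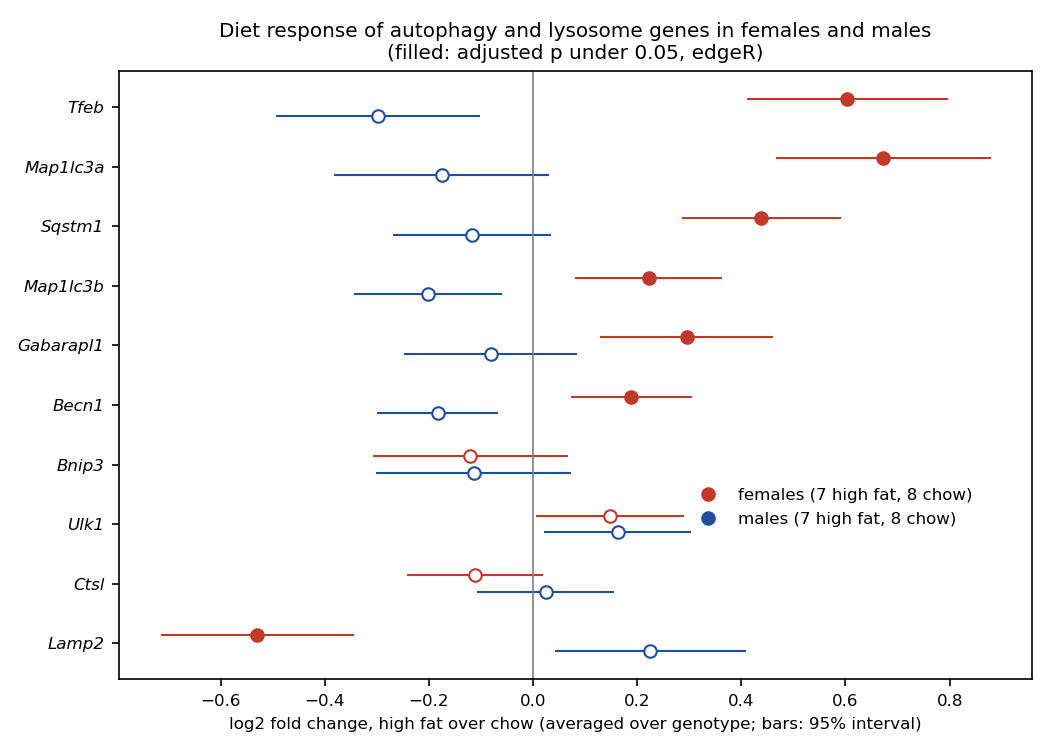
Log2 fold change on high fat over chow with its 95% interval for each of the 10 genes, in females and males (7 high-fat and 8 chow libraries each), averaged over genotype; filled points passed the test. Map1lc3a, Tfeb and Sqstm1 lie at 0.67, 0.60 and 0.44 in females and at -0.18, -0.30 and -0.12 in males, and Lamp2 has the opposite order, -0.53 in females and 0.23 in males.

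The difference between the sexes was itself tested as the change in females minus the change in males, averaged over genotype. Of the 10 genes, 7 passed, 6 with a positive and 1 with a negative difference, against 45.2% of all tested genes (21.6% positive and 23.6% negative). The differences were 0.90 ± 0.14 for Tfeb (adjusted p = 1.5e-05) and 0.85 ± 0.15 for Map1lc3a (5.8e-05). Sqstm1 differed by 0.56 ± 0.11 (0.00021), Map1lc3b by 0.42 ± 0.10 (0.0013), Gabarapl1 by 0.38 ± 0.12 (0.012) and Becn1 by 0.37 ± 0.08 (0.00075). Lamp2 differed by -0.76 ± 0.13 (6.1e-05). Bnip3 (-0.01), Ulk1 (-0.02) and Ctsl (-0.14 ± 0.09) did not pass. All 7 passed in each of the 30 fits that left out 1 library. Tfeb, Sqstm1, Map1lc3b and Becn1 also passed in all 12 other settings, the grouping by own title among them. That grouping goes against the Trim63 levels of 4 libraries.

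Averaged over sex and genotype, the diet effect left no gene of the 10 past the test, against 0.827% of all tested genes. At an unadjusted p under 0.05 there were 5, against 2705 of the 14024 tested genes, and DESeq2 called none. The largest average difference was that of Map1lc3a, 0.25 ± 0.07 (adjusted p = 0.081).

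The size of several of these differences moved with GC content. The longest transcripts of the 10 genes range from 38.7% G and C in Lamp2 to 63.1% in Map1lc3a and 63.2% in Tfeb, around a median of 49.8% for the tested genes. Over all tested genes the median diet-by-sex difference went up with GC content, from -0.37 in the lowest of 5 equal classes of genes to 0.32 in the highest. Within groups, Lamp2 deviated with the library's GC slope at r = -0.84 and Tfeb at r = 0.78 (30 libraries, group means subtracted), while Map1lc3b (0.12) and Ctsl (0.06) showed little relation.

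With GC content removed in the fit, the diet-by-sex difference was 0.44 for Tfeb, 0.39 for Map1lc3a, 0.40 for Sqstm1, 0.38 for Map1lc3b, 0.28 for Gabarapl1, 0.59 for Becn1 and -0.36 for Lamp2, and all 7 still passed (adjusted p at most 0.048). That fit called 5775 of the 14024 tested genes, against 6340 without the correction. In the same fit Ulk1 passed with -0.30 (adjusted p = 0.012), and Bnip3 turned from -0.01 to 0.33 (adjusted p = 0.023). With exon length removed as well, a correction chosen after the data were seen, Tfeb (0.49), Sqstm1 (0.33), Map1lc3b (0.51) and Becn1 (0.71) passed, and Map1lc3a (0.09), Gabarapl1 (0.10) and Lamp2 (-0.16) did not. In females, removal of GC content alone left 5 of the 7 genes past the test, without Map1lc3b (0.17, adjusted p = 0.066) and Gabarapl1 (0.19, adjusted p = 0.06). Of all tested genes it called 4545 in females, against 5964 without the correction. With length removed as well, Becn1 (0.43), Map1lc3b (0.26), Sqstm1 (0.24) and Tfeb (0.23) passed.

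**Figure D3:**
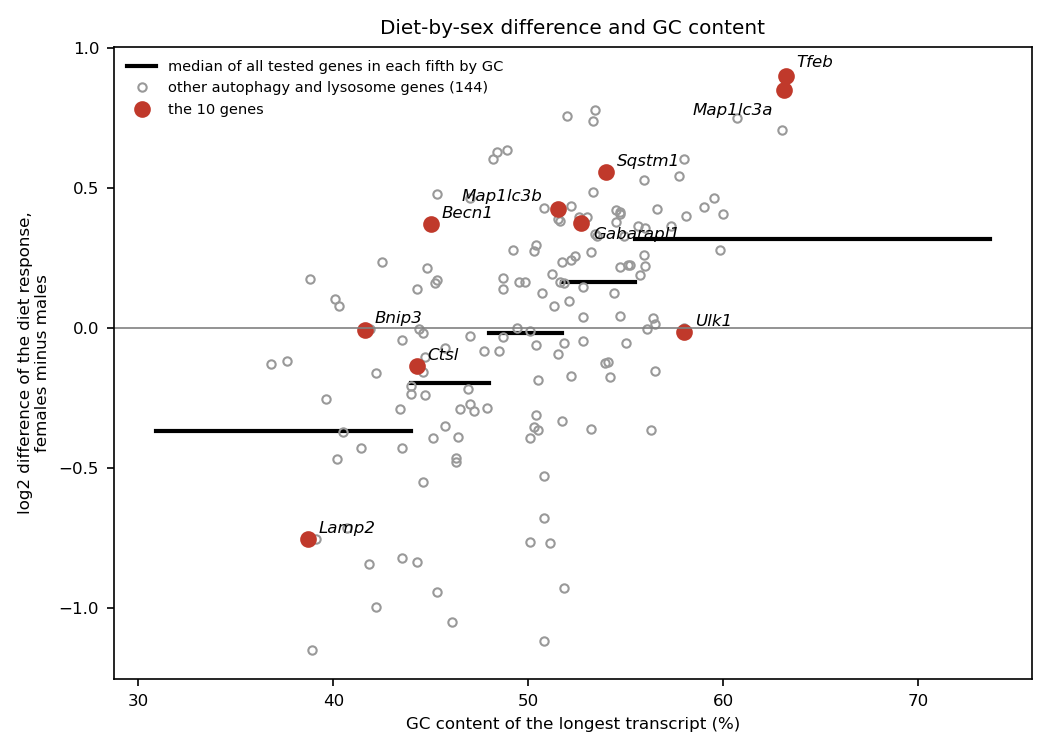
Diet-by-sex difference (log2, females minus males) against the GC percent of the longest transcript, for the 10 genes (filled) and 144 other autophagy and lysosome genes (open), with the median of all tested genes in each of 5 equal classes by GC content as bars. The medians run from -0.37 to 0.32; Becn1, at 45.0% G and C and 0.37, lies well above the bar of its class (-0.20), and Ulk1, at 58.0% and -0.02, lies below the bar of its class.

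Markers of other cells also moved with diet and sex. The summed level of 12 macrophage genes was lowest, median and highest at 112, 188 and 198 CPM in females on high fat, against 217, 245 and 311 CPM in females on chow. In males it was 121, 196 and 222 CPM on high fat, against 47.6, 121 and 194 CPM on chow. The 9 muscle fibre genes summed to a median of 160200 CPM in females on high fat, against 118000 CPM in females on chow. In males their median was 144800 CPM on high fat, against 176900 CPM on chow. By the diet-by-sex test 10 of 12 macrophage genes were lower and 6 of 9 fibre genes higher, with none in the opposite direction, and 5 of 6 adipocyte genes were lower. Of all tested genes 45.2% passed there, 21.6% higher and 23.6% lower. Lower too were 5 of 8 fibroblast, 3 of 5 erythroid and 2 of 4 Schwann cell genes. Of 6 endothelial genes 1 was higher and 2 lower, of 3 satellite cell genes 1 was higher, and of 6 keratinocyte genes 0 passed. The part of these cell types in the changes of the 10 genes was not tested.

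A wider list of 144 other autophagy and lysosome genes, all of which passed the filter, was read in the same fits. By the diet-by-sex test 40 were higher and 35 lower, 52.1% of the list against 45.2% of all tested genes, with a median of 0.03. In females 39 were higher and 28 lower on high fat (46.5%, against 42.5% of all tested genes). In males 6 were higher and 5 lower (7.64%, against 7.97%). For the 10 genes the diet-by-sex test gave 6 positive differences and 1 negative. Of all 154 listed genes, the 10 included, GC correction left 52 called in females, against 74 without it. By the diet-by-sex test it left 70, against 82. Among all tested genes the numbers were 4545 against 5964 in females and 5775 against 6340 by the diet-by-sex test. The changes of single genes named below come from the fit without this correction.

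The rest of the ATG8 family, to which LC3 and GABARAP proteins belong, had Gabarapl2 higher in females on high fat (0.24 ± 0.08) and both Gabarapl2 (0.48) and Gabarap (0.43) positive in the diet-by-sex test. Among 15 cargo receptors, 4 were higher and 3 lower in females on high fat (46.7%, against 42.5% of all tested genes). Fkbp8 (0.55) and Phb2 (0.47), both receptors for mitochondria, rose. Ncoa4 (-0.67), the receptor for ferritin, and Wdfy3 (-0.51), which serves protein aggregates, fell. In males Ncoa4 (0.28) and Wdfy3 (0.42) rose and Phb2 fell (-0.31). These 3 genes thus passed in both sexes with opposite signs.

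Beside Ulk1, the initiation complex had Atg101 higher (0.41) and the scaffold gene Rb1cc1 lower (-0.57) in females on high fat. Beside Becn1, the lipid kinase complex had Nrbf2 (0.29) and Ambra1 (0.20) higher, and Pik3c3, its catalytic subunit, lower (-0.21). The 18 genes of conjugation and membrane growth had 6 higher and none lower, among them Atg2a (0.39), Atg4d (0.32) and Atg7 (0.30). That was 33.3% of these genes, below the 42.5% of all tested genes. Of 12 genes of fusion with the lysosome, 4 were higher, such as Vamp8 (0.35), and 3 lower, such as Epg5 (-0.42) and the SNARE gene Stx17 (-0.29). In this list 58.3% changed, against 42.5% of all tested genes.

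Around Lamp2, 10 other lysosomal membrane genes had Tmem192 (0.37) and the calcium channel gene Mcoln1 (0.22) higher and Scarb2, the receptor that carries glucocerebrosidase, lower (-0.38). Around Ctsl, 36 lysosomal enzyme genes had 8 higher and 9 lower in females on high fat (47.2%, against 42.5% of all tested genes). Gaa, the glycogen-degrading acid glucosidase, rose by 0.43 ± 0.08 and Asah1, acid ceramidase, had a change of -0.55 ± 0.10. The 16 subunits of the proton pump that acidifies the lysosome had 6 higher, such as Atp6v1f (0.54) and Atp6v0c (0.51), and 2 lower, such as Atp6v1a (-0.40). Near Tfeb among 24 regulators, Lamtor1 (0.48), an anchor of mTORC1 at the lysosome, and Akt1s1 (0.53), an mTORC1 inhibitor, rose. Fnip1 (-0.95), a folliculin partner, and Prkaa2 (-0.54), a catalytic subunit of AMPK, fell.

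**Figure D4:**
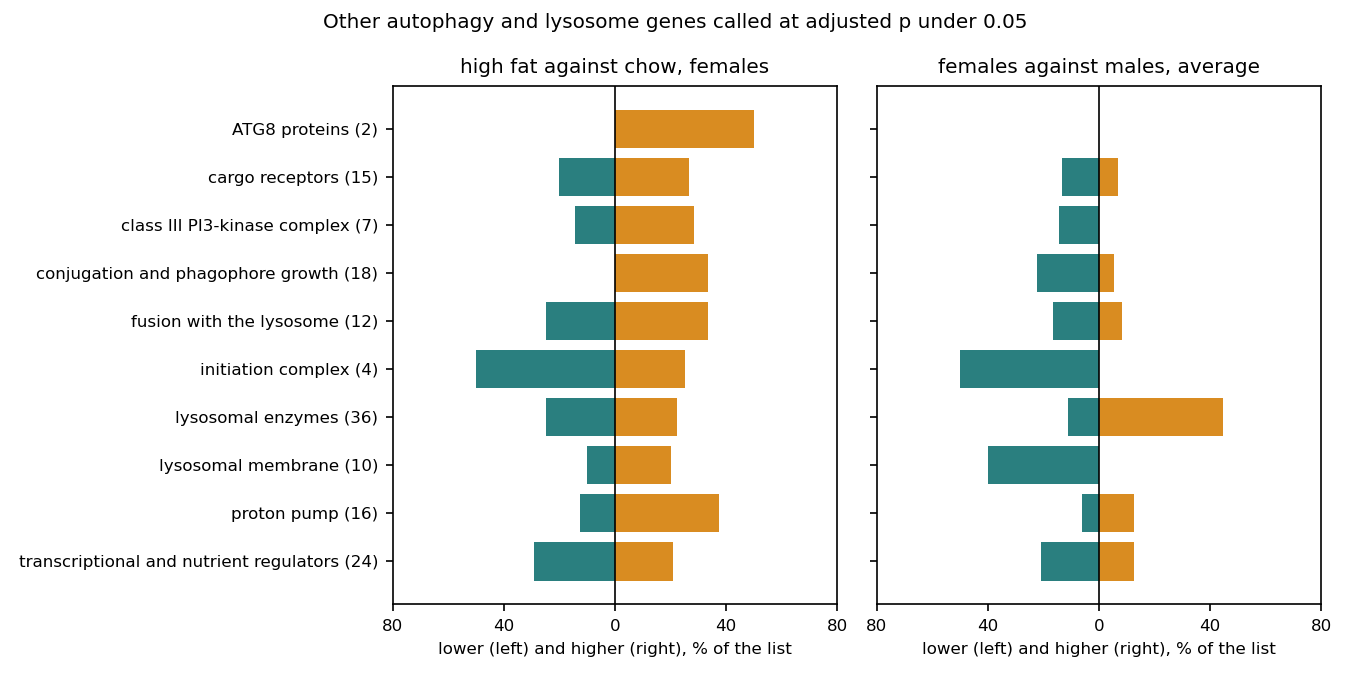
Share of the other autophagy and lysosome genes of each role (number of genes in parentheses) that were higher (right) or lower (left) at an adjusted p under 0.05, for high fat against chow in females and for females against males. Lysosomal enzymes are close to even under the diet (8 higher and 9 lower of 36) and mostly higher in females than in males (16 higher and 4 lower). These are 47.2% and 55.6% of the list, against 42.5% and 30.8% of all tested genes.

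Loss of MuRF1 left none of the 10 genes past the test when averaged over sex and diet, against 4.39% of all tested genes. At an unadjusted p under 0.05 there was 1, against 2764 of the 14024 tested genes, and DESeq2 called 1, in both cases Map1lc3b. Its level had a lowest, median and highest of 150.1, 169.5 and 227 CPM in the 14 knockout libraries, against 130.3, 152 and 203 CPM in the 16 wild-type libraries. The ranges overlapped widely, and the log2 difference was 0.14 ± 0.05 (adjusted p = 0.099, edgeR). With GC content removed, Map1lc3b (0.17, adjusted p = 0.042) and Ulk1 (0.16, adjusted p = 0.035) passed.

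Sqstm1 had a median of 517 CPM in knockout libraries, against 506 CPM in wild-type libraries, and its log2 difference of 0.04 had a 95% interval of -0.07 to 0.14. For Tfeb the interval was -0.06 to 0.22, for Lamp2 -0.16 to 0.10 and for Bnip3 -0.01 to 0.25. These intervals bound the average genotype difference of each gene at this number of libraries, and do not show that there was none.

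Within sex and diet the genotype test called none of the 10 genes in any group by edgeR or DESeq2. The background was 6.95% of all tested genes in males on chow, 0.264% in males on high fat, 0.0927% in females on chow and 0.0713% in females on high fat. In males on chow, where 3155 of the 14024 tested genes had an unadjusted p under 0.05, 5 of the 10 did. Of these, Map1lc3a (0.32 ± 0.14), Tfeb (0.28 ± 0.13), Ulk1 (0.22 ± 0.10) and Becn1 (0.19 ± 0.08) were higher without MuRF1 and Lamp2 (-0.27 ± 0.13) lower, with adjusted p of 0.15 to 0.21. In the same contrast 8 of 8 fibroblast, 9 of 12 macrophage and 5 of 6 endothelial genes were lower without MuRF1, and no marker gene of any list changed in the other 3 combinations of sex and diet. The part of these cells in the values of the 10 genes was not tested. Ulk1 stood at 97.6, 109.8, 110.5 and 98.3 CPM in knockout males on chow, against 85.9, 93.6, 86.3 and 91.7 CPM in wild-type males on chow, without overlap (as in 10.3% of all tested genes). In females on high fat Ctsl was at 97.0, 128 and 99.3 CPM in knockouts, against 91.2, 90.5, 86.0 and 88.7 CPM in the wild type, a difference of 0.28 ± 0.10 (unadjusted p = 0.0077, adjusted p = 0.46). No gene of the 10 passed the test of the genotype-by-sex difference, which called 0.0285% of all tested genes, and Ctsl had the lowest adjusted p there (0.30 ± 0.09, adjusted p = 0.21). At an unadjusted p under 0.05 there was 1, against 1428 of the 14024 tested genes, and DESeq2 called none. In males on high fat and in females on chow no gene of the 10 had an unadjusted p under 0.05, against 1386 and 681 of the 14024 tested genes. In females on high fat 1 had, against 1102 of all tested genes.

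Of the 144 other pathway genes, 6 were higher and 2 lower without MuRF1 on average (5.56%, against 4.39% of all tested genes). Ppt1, a lysosomal thioesterase, rose by 0.53 ± 0.06 (adjusted p = 2.75e-06), Foxo1 by 0.41 ± 0.10, Mtor by 0.23 ± 0.06, and Pik3c3, Ulk2 and Rragd by 0.20 each. Grn, the gene of progranulin, had a difference of -0.33 ± 0.08 and Lgmn, a lysosomal protease, -0.19 ± 0.05. Ppt1 (chr4:122836242-122859175), Mtor (chr4:148448611-148557683) and Rragd (chr4:32983037-33022180) lie on the same chromosome as Trim63 (chr4:134315120-134329629), whereas none of the 10 genes does. Grn and Lgmn are high in macrophages, and 6 of 12 macrophage genes were lower without MuRF1 on average and none higher. Whether linkage to Trim63 or macrophage content had a part in these differences was not tested.

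Females and males differed in 5 of the 10 genes on average over genotype and diet, against 30.8% of all tested genes. Ctsl and Tfeb were higher in females, and Sqstm1, Bnip3 and Becn1 lower. Ctsl had a lowest, median and highest level of 86.0, 102 and 128 CPM in 15 females, against 73.0, 77.5 and 95.8 CPM in 15 males, which overlapped little (log2 difference 0.35 ± 0.05, adjusted p = 9.5e-07, edgeR). Bnip3 had 143, 195 and 245 CPM in females, against 202, 240 and 300.5 CPM in males (-0.31 ± 0.07, adjusted p = 0.0008). Both kept their sign on each diet: Ctsl by 0.42 on chow and 0.28 on high fat, Bnip3 by -0.30 on chow and -0.31 on high fat, all past the test. With GC content removed, the high-fat difference of Bnip3 was -0.11 and did not pass. Becn1 (-0.12 ± 0.04, adjusted p = 0.027) missed the threshold in 6 other settings, GC correction among them (-0.11, adjusted p = 0.0905). It also missed without knockout chow male 2 or knockout high-fat male 3. GC correction brought Map1lc3a (-0.22, adjusted p = 0.0072), Ulk1 (-0.14, adjusted p = 0.023) and Lamp2 (0.15, adjusted p = 0.0053) past the same test on average. It called 4716 of all tested genes, against 4317 without it. With exon length removed as well, Map1lc3a (-0.20), Ulk1 (-0.15) and Lamp2 (0.14) passed too.

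The other sex differences depended on diet, by the same diet-by-sex test as above. On chow 6 of the 10 genes differed, against 47.9% of all tested genes. Sqstm1 had a lowest, median and highest level of 332.0, 378 and 437 CPM in females on chow, against 483, 567 and 706 CPM in males on chow (-0.60 ± 0.07, adjusted p = 2.4e-07). Becn1 had 38.5, 40.6 and 43.2 CPM in females on chow, against 43.7, 51.0 and 55.2 CPM in males on chow (-0.31 ± 0.06, adjusted p = 6.7e-05). Neither overlapped, nor did Ctsl in the opposite direction, in a background of 10.1% of all tested genes. Map1lc3a (-0.57 ± 0.10) was also lower and Lamp2 (0.47 ± 0.09), which is X-linked, higher in females on chow.

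On high fat 6 of the 10 differed between females and males, against 29.3% of all tested genes, but partly with other signs. Tfeb was at 84.6, 111 and 144 CPM in females on high fat, against 56.9, 67.7 and 78.8 CPM in males on high fat. It was the one gene of the 10 without overlap there (4.72% of all tested genes), with a log2 difference of 0.74 ± 0.10 (adjusted p = 3.5e-06). Map1lc3b (0.29 ± 0.07) and Map1lc3a (0.28 ± 0.11) were higher in females and Lamp2 (-0.28 ± 0.10) lower. Map1lc3a, with an adjusted p of 0.049, passed in 9 of 30 fits with 1 library left out. Without knockout high-fat male 1 or wild-type high-fat female 3, 3 of the 10 genes passed. Sqstm1 differed by -0.04 ± 0.08 (adjusted p = 0.72). With GC content removed, Map1lc3a (-0.03) and Lamp2 (-0.03) no longer passed on high fat, whereas Tfeb (0.42), Ctsl (0.43) and Map1lc3b (0.24) did. Ulk1 then passed as well, lower in females (-0.29, adjusted p = 0.0027, edgeR), and also with exon length removed (-0.26). With all 30 libraries and no such correction, Ulk1 passed in none of the diet, sex or genotype comparisons.

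Among the 144 other pathway genes 24 were higher and 25 lower in females on average (34.0%, against 30.8% of all tested genes). Of the 36 lysosomal enzyme genes 16 were higher and 4 lower, the higher ones including Grn (0.49), Gusb (0.37), Lgmn (0.27) and Npc2 (0.26). Npc1, the membrane partner of Npc2 in cholesterol export, was lower (-0.98 ± 0.07), as was Optn, a cargo receptor (-0.66 ± 0.06). Sesn1, an inhibitor of mTORC1, was higher (0.80 ± 0.05). Of the 12 macrophage genes 11 were higher in females on average and none lower, and all 8 fibroblast genes were higher. On chow, where 47.9% of all tested genes differed, all 12 macrophage and all 8 fibroblast genes were higher in females. On high fat, where 29.3% differed, 0 macrophage genes were higher and 1 lower, and 4 fibroblast genes were higher. Their part in the enzyme counts and in the difference of Ctsl was not tested.

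The 10 genes also varied among animals of a group. After group means were subtracted from log2 CPM, 14 of 45 pairs correlated across the 30 libraries at an adjusted p under 0.05, by 100000 two-sided permutations within groups with Benjamini-Hochberg adjustment over the 45 pairs. Of the 14 pairs, 10 were positive. The share of correlated pairs among all tested genes was not measured, so this count cannot be read as particular to the 10 genes. Lamp2 and Tfeb ran opposite to each other, with Pearson's r = -0.86 and Spearman's rho = -0.84, each with a permutation p of 1e-05, the smallest these permutations can give (adjusted p = 0.00045 for both). Without the 2 libraries farthest from the median r was -0.82, and with the GC slope removed it was -0.60.

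Map1lc3a and Tfeb ran together, with r = 0.79 (permutation p = 4e-05, adjusted 0.0009) and rho = 0.82 (5e-05, adjusted 0.0011). Without 2 libraries r was 0.79, and with the slope removed 0.68. Map1lc3a and Map1lc3b gave r = 0.73 (permutation p = 0.0019, adjusted 0.012) and rho = 0.70 (0.0013, adjusted 0.011), with 0.63 without 2 libraries and 0.82 with the slope removed. Map1lc3a and Lamp2 gave r = -0.76 (permutation p = 0.00046, adjusted 0.0069) and rho = -0.72 (0.00082, adjusted 0.01), with -0.67 without 2 libraries and -0.62 with the slope removed. Sqstm1 and Map1lc3b gave r = 0.71 (permutation p = 0.00078, adjusted 0.0075) and rho = 0.67 (0.00091, adjusted 0.01), with 0.70 without 2 libraries and 0.74 with the slope removed.

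**Figure D5:**
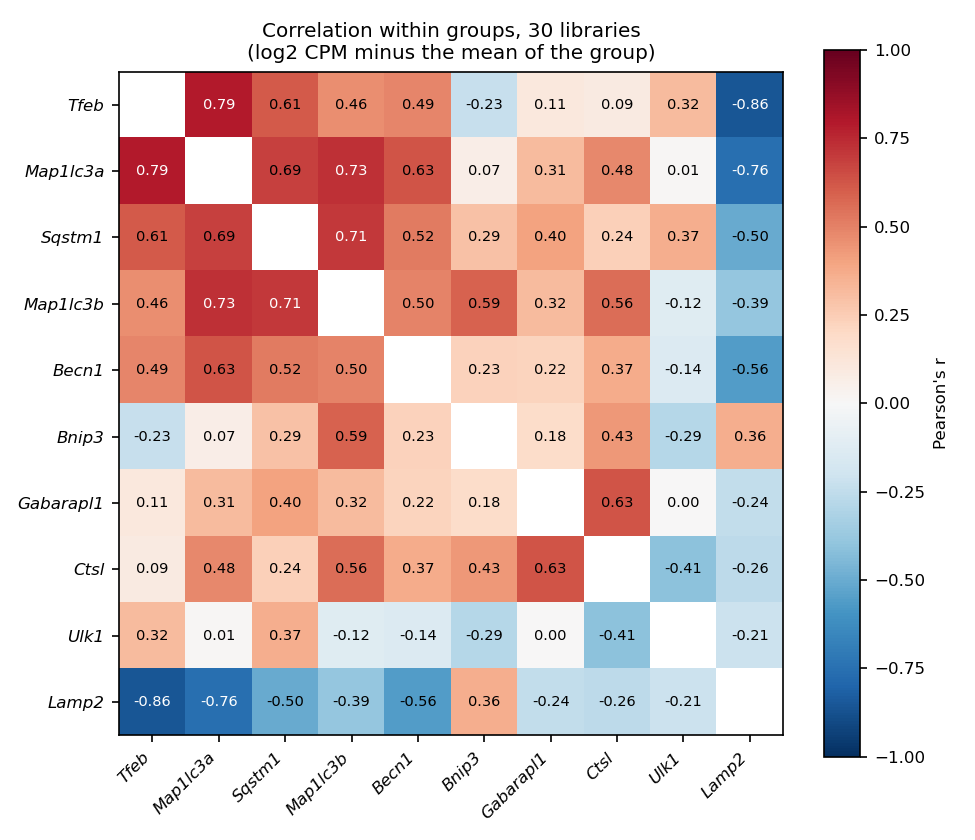
Pearson r between each pair of the 10 genes over 30 libraries, after the mean of its group was subtracted from each library's log2 CPM; red is positive and blue negative. Lamp2 with Tfeb has the most negative value, -0.86, and Map1lc3a with Tfeb the most positive, 0.79.

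By the same measure, the genes whose deviations were most like each of the 10 over these 30 libraries were read from all tested genes. Tfeb was closest to Abhd16a (r = 0.92) and Jsrp1 (0.92), Map1lc3a to Ubxn6 (0.97) and the ribosomal protein gene Rpl18 (0.96), and Sqstm1 to 2410006H16Rik (0.91) and Impdh2 (0.89). Lamp2 was closest to Abi1 (0.91) and Xiap (0.90), Map1lc3b to Cisd1 (0.92) and the proteasome gene Psmb1 (0.92), and Bnip3 to Ugp2 (0.90) and Eif4a2 (0.89). Becn1 (C130036L24Rik, 0.82), Ctsl (S100a13, 0.80), Ulk1 (Sun2, 0.79) and Gabarapl1 (Mrpl41, 0.73) had less close neighbours. Libraries differ in depth and GC slope, whose part in these values was not tested.

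In build mm10 with GENCODE M21, the identifiers and positions of the 10 genes were as follows. Sqstm1 (ENSMUSG00000015837) lies at chr11:50199366-50210827 and Becn1 (ENSMUSG00000035086) at chr11:101285952-101302286, both on the minus strand. Map1lc3a (ENSMUSG00000027602) lies at chr2:155276297-155278073, Map1lc3b (ENSMUSG00000031812) at chr8:121590361-121598760, Gabarapl1 (ENSMUSG00000030161) at chr6:129533160-129542346 and Tfeb (ENSMUSG00000023990) at chr17:47737030-47792419, all on the plus strand. Bnip3 (ENSMUSG00000078566) at chr7:138890836-138909519, Ulk1 (ENSMUSG00000029512) at chr5:110784488-110810097, Lamp2 (ENSMUSG00000016534) at chrX:38401357-38456454 and Ctsl (ENSMUSG00000021477) at chr13:64359337-64370890 are on the minus strand. Counts cover whole genes, so isoforms such as those of Lamp2 are not told apart. Bnip3 has 6 near-identical copies, of which AC160336.1 is the longest match (96.6% identity over 1654 bases). Gm16439 (98.9% over 564 bases) had at most 52 counts and Gm14506 at most 4, and the other 4 copies were not analysed here. Ctsl matches Gm47123 over 977 bases and Gm49230 over 395 bases with no mismatch, and neither was analysed here. The share of reads split with these genes is unknown, so the levels of Bnip3 and Ctsl are uncertain to that extent. Map1lc3b overlaps Zcchc14 on the opposite strand, with median counts of 2048 for Map1lc3b and 359 for Zcchc14, and the sources used here do not state the strand setting of the counting.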

How the data were processed

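Poly(A) RNA of mouse gastrocnemius was sequenced in 31 libraries made with a stranded kit, as 150 bp paired-end reads, per the labels' protocols. For each library the authors' file lists whole-number read counts per Ensembl gene, as deposited and without normalization. The submitters' processing notes name bcl2fastq, featureCounts and mm10. The aligner, the release of the annotation and whether reads were counted by strand were not given in the sources used here. Identifiers were matched to symbols in GENCODE M21 (37693 of 39017).

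Libraries were grouped by the title that carries the animal number of their description. From the deposited counts, edgeR 4.0.16 in R 4.3.3 fitted 1 mean per group (TMM scaling, filterByExpr with a minimum count of 10, robust quasi-likelihood), and 14024 genes were tested with Benjamini-Hochberg adjustment at 0.05 over all of them. The biological coefficient of variation was 14.2%. Contrasts were averages over the other factors, effects within groups and differences of effects; 4 of them (diet within sex and sex within diet, averaged over genotype) were added after the data were seen. The fitting steps were tested on simulated counts before use. Other settings were RLE size factors, DESeq2 1.42.0, no filter, a fit on the compared groups alone, other groupings by label, GC correction, a replicate block, removal of mitochondrial genes, removal of libraries with unusual Krt10 or Trim63, GC and length correction (added later) and the removal of each library. Among replicates of a group, all pairs differed by more than sampling noise. P-values treat libraries as separate animals, as their numbers in the labels read.

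The 10 genes and the wider lists were chosen with earlier results of these data known. All 10 are named. Of the other autophagy and lysosome genes, up to 4 genes of each role that passed with the smallest p are named per contrast, and for each of the 10 the 2 tested genes with the most similar deviations. Cell markers and GC slopes are given as measured values. GC content was that of the longest GENCODE M21 transcript, and the length in the correction that of all exons. CPM values were scaled by TMM.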

Additional observations from a re-analysis of the deposited data

Results flagged for a closer look

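In the 60 sets of 4 libraries formed by the groups and the 10 genes, 1 library stood apart from the other 3 in 7 sets, by the gap to its neighbour relative to the range (Dixon's test at the 95% level, which by chance marks about 5% of such sets). Sqstm1 was 437 CPM in knockout chow female 4, above the other 3 of its group, and 332.0 CPM in wild-type chow female 4, below the other 3. Gabarapl1 was 40.2 CPM in knockout chow female 1, below its group, and 55.9 CPM in wild-type chow female 1, above its group. Bnip3 was 245 CPM in wild-type chow female 1, above its group, and Lamp2 was 80.2 CPM in wild-type chow female 2, below its group. Ulk1 was 124 CPM in wild-type high-fat female 3, the library with the steepest GC slope.

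The diet effect differed between females and males, by the test of the difference itself, for 7 of the 10 genes. The log2 differences were 0.90 for Tfeb, 0.85 for Map1lc3a, 0.56 for Sqstm1, 0.42 for Map1lc3b, 0.38 for Gabarapl1, 0.37 for Becn1 and -0.76 for Lamp2.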

How the results depend on the processing

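Counts of the 10 genes past the test are given here for each other setting that moved them by over 1.5 times; smaller moves are left out. For diet by sex, 7 became 4 with GC and length correction. For diet in females, 7 became 4 with that correction and 4 without the libraries high in Krt10. For diet in wild-type females, 5 became 0 with groups by own title, 3 with only libraries whose labels agree, and 1 with each of GC correction, GC correction with the replicate block, and GC and length correction. For diet in knockout females, 4 became 7 by own title, 2 with GC and length correction and 0 without the libraries high in Krt10. For diet in knockout males, 1 became 2 with DESeq2 and with GC and length correction, 6 in the fit of the 2 groups alone, and 0 where labels agree, with the replicate block and GC correction, without mitochondrial genes and without the libraries high in Krt10. For diet in males, 0 became 1 with RLE size factors, where labels agree and with the replicate block. It became 2 by own title and with GC correction, with the replicate block and GC correction, and with GC and length correction. It became 3 with DESeq2 and without wild-type libraries low in Trim63. For genotype on average, 0 became 1 with DESeq2, with GC and length correction and without wild-type libraries low in Trim63, 2 with GC correction, and 3 with the replicate block and GC correction. For genotype in males on chow, 0 became 1 with GC and length correction. The causes were not tested.

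Signs turned in these cases among values called before or after. Bnip3 had a diet-by-sex difference of 0.33 with GC correction, without and with the replicate block (0.3326 and 0.3317). For females against males on high fat, Map1lc3a was at -0.029 with GC correction, -0.036 with the replicate block as well and -0.16 with GC and length correction, and Lamp2 at 0.063 with the last.

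With each library left out in turn, the counts ranged over 7 to 7 for diet by sex, 6 to 8 for diet in females, 0 to 3 for diet in males, 4 to 6 in wild-type females, 0 to 4 in knockout females, 0 to 3 in knockout males, 4 to 6 for sex on average, 6 to 8 on chow, 3 to 7 on high fat and 0 to 1 for genotype on average. The other contrasts gave 0 throughout.

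Of 99 same-numbered pairs of libraries across groups, 33 deviated together at r over 0.1 and 13 at r under -0.1, with a median of 0.03 and a highest r of 0.457. Pairs with different numbers were not compared, so these values cannot tell whether replicate numbers pair the libraries. The replicate block alone moved the count for diet in males as above and no other count by over 1.5 times. Without the filter on low counts the median diet-by-sex difference of all genes was -0.11, the one median that a scaling or filter moved past 0.1. Each of the 10 genes had at least 395 counts in every library.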

Other observations

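The library whose animal number is in no title was placed in no group. Without TMM scaling it had 476 CPM of Sqstm1, 118 CPM of Map1lc3a, 145 CPM of Map1lc3b, 43.7 CPM of Gabarapl1, 259.7 CPM of Bnip3, 99.1 CPM of Ulk1, 45.8 CPM of Becn1, 82.8 CPM of Lamp2 and 72.4 CPM of Ctsl. Each of these lies within the range of the 30 grouped libraries. Tfeb was 53.1 CPM, below the lowest grouped library at 58.3 CPM. Trim63 was 107 CPM, against 0.47 to 6.24 CPM in the knockout libraries and 108.5 to 254 CPM in the wild-type libraries. The library's own title names a knockout male on high fat, and the grouping by own title counted it as one.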
